A study of Mus musculus with 6 samples.

Results

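Pyruvate made in the cytosol crosses the inner mitochondrial membrane through a carrier of paired subunits and is converted to acetyl-CoA by the pyruvate dehydrogenase complex, which kinases switch off and phosphatases switch on again by acting on its alpha subunit. Acetyl-CoA then enters the tricarboxylic acid (TCA) cycle, which feeds electrons to the respiratory chain. The kidney tubule, above all its proximal part and thick ascending limb, is rich in mitochondria and uses this route together with fatty acid oxidation to pay for transport. The transcripts described here are the 31 named genes of this route: the mitochondrial pyruvate carrier, the pyruvate dehydrogenase complex with its kinases and phosphatases, TCA cycle enzymes, their cytosolic or NADP-dependent partners, and the malic enzymes. They were found by gene symbol among 32291 names in 1 table of transcript rows, and all 31 were found. Where a gene had several rows, its row of highest mean abundance stood for it. In the levels printed for single genes of the 31, this is the highest row with a RefSeq mRNA identifier. Only those rows have a length. Pdk3 and Pdp2 are the genes in which that choice lowered the level by more than 0.02 in log2 CPM.

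The table covers whole kidneys of 6 mice aged 22 days by the labels. The 3 SKO kidneys were from KspCre; Pkd1 F/RC mice and the 3 DKO kidneys from mice of that genotype that also carried miR-17∼92 F/F. All 6 therefore shared the Cre transgene, the loxP-flanked Pkd1 allele and the hypomorphic RC allele, and no kidney without a Pkd1 mutation was among them. In this model Cre is driven by the promoter of Ksp-cadherin, a tubule epithelial cadherin, so that the loxP-flanked alleles stay intact in cells that do not use that promoter, while the RC allele is present in every cell. The study compared DKO with SKO kidneys to ask what deletion of the miR-17∼92 cluster does in cystic tissue. That comparison is not made here. The table gives 1 mean abundance for each transcript row over both groups and no value for a single kidney, and its remaining 4 columns of numbers hold the authors' own comparison, which was not used. The values below are accordingly the authors' means in CPM, counts scaled to a common library total, without SD, replicate number or test, and describe the level of each transcript in this tissue pooled over SKO and DKO. The number of reads behind a value is unknown. Whether neighbours in any order of genes differ beyond the spread between kidneys cannot be told from 1 mean each, and in whole tissue fewer cells of a type and less RNA per cell cannot be told apart.

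The tissue was checked against defining markers, each given by its highest row of any kind. Markers of the proximal tubule (Slc34a1, 1030 CPM; Lrp2, 567 CPM), the thick ascending limb (Umod, 1022 CPM; Slc12a1, 618 CPM) and the distal convoluted tubule (Slc12a3, 169 CPM) were abundant, as was Cdh16, the gene of Ksp-cadherin, at 480.4 CPM. Pvalb, the other distal convoluted tubule marker, was low at 3.14 CPM. Endothelial (Pecam1, 52.7 CPM) and macrophage (Csf1r, 25.3 CPM) markers were also present. The heart marker Myh6 and the skeletal muscle marker Acta1 were close to 0, at 0.171 and 0.0890 CPM. The liver marker Alb was at 13.4 CPM and the nerve marker Syp at 3.01 CPM. Ucp1, a marker of brown fat, stood at 19.8 CPM, and 5 further fat genes, looked up after that value had been seen, lay between 2.14 CPM (Plin1) and 12.2 CPM (Cfd). Brown fat is itself rich in TCA cycle transcripts, and its part in the levels below was not tested.

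To set genes beside each other, the CPM of the highest row with a RefSeq mRNA identifier was divided by the length of the matching transcript, giving CPM per kilobase. On this scale the 31 genes had a median of 42.7 and ran 64.0-fold, from 2.65 for Pdp2, a pyruvate dehydrogenase phosphatase, to 169.7 for Mdh1, the cytosolic malate dehydrogenase. Among the 12499 genes with a length and at least 1 CPM, whose median was 4.06 CPM per kilobase, 22 of the 31 were above the 90th percentile, 23 above the 75th and 28 above the 50th. The 3 below the 50th were Pdp1, Pdp2 and Me2. Division by coding length, which leaves out the untranslated parts, raised the median of the 31 genes to 68.5 CPM per kilobase.

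**Figure D1:**
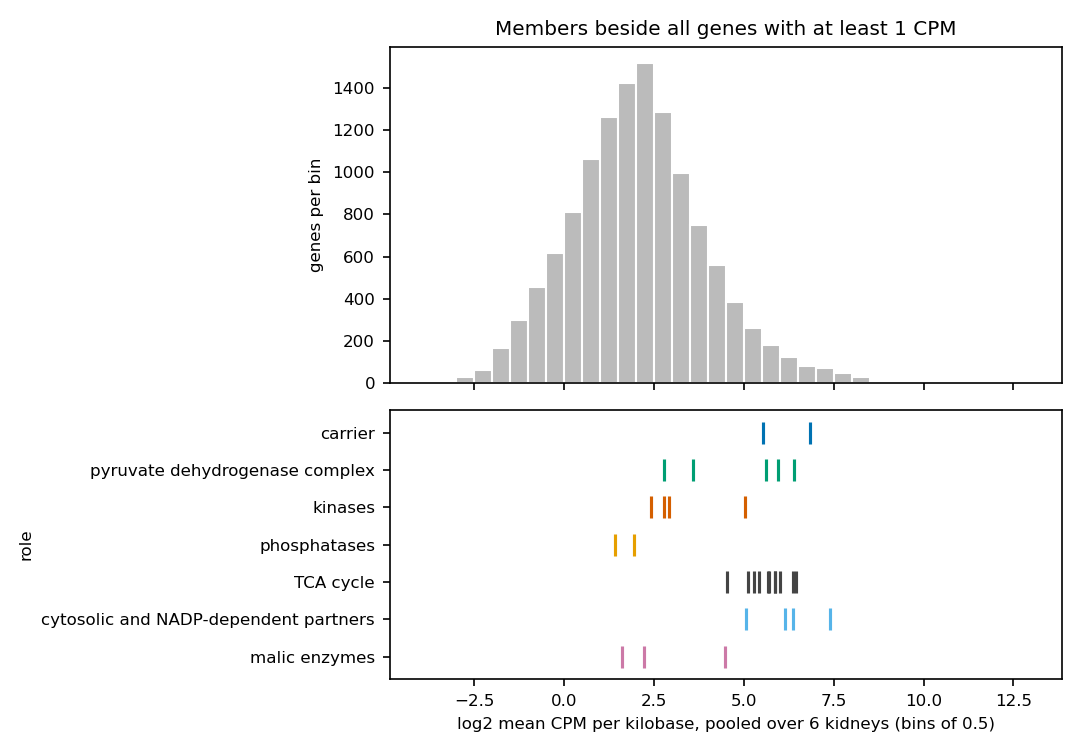
Number of genes (vertical axis) by mean CPM per kilobase of transcript on a log2 scale (horizontal axis), for the 12499 genes with at least 1 CPM (upper panel), and vertical ticks at the level of each of the 31 pyruvate entry and TCA cycle genes on the same axis, 1 line for each role (lower panel). Of the ticks, 28 lie above the median of all genes plotted, 4.06 CPM per kilobase, and Mdh1 at 169.7 is farthest to the right.

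Of the pyruvate carrier genes, Mpc1 was 2nd and Mpc2 15th of the 31 genes per kilobase. Mpc1 (chr17:8282904-8297661, plus strand, mm10) was listed at 109 CPM, or 114 CPM per kilobase, and Mpc2 (chr1:165460637-165481214, plus strand) at 47.6 CPM, or 46.5 CPM per kilobase. The products of these genes form the carrier together. The level of Mpc1 per kilobase was 2.45 times that of Mpc2, and 2.67 times with coding length. Mpc1 is hard to count with reads of 51 bases, since 43.9% of its windows of that length also occur in transcripts of other genes, chiefly a pseudogene, Mpc1-ps. The full CPM of Mpc1 divided by the length that is not shared came to 203 CPM per kilobase, above Mdh1 and first of the 31 genes. No reads were taken out, so this value and this place hold only if the shared windows gave no reads. Levels over the length not shared are taken in the same way below.

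The subunits of the pyruvate dehydrogenase complex fell into a high and a low set. Pdha1, the alpha subunit of the decarboxylase and the target of the kinases, stood at 238 CPM and 83.5 CPM per kilobase. Pdhb, the beta subunit that pairs with it, stood at 48.9 CPM per kilobase. Dld, the dihydrolipoamide dehydrogenase that other 2-oxoacid dehydrogenases and the glycine cleavage system also use, stood at 61.3. Dlat, the acetyltransferase of the core, was lower at 11.9 CPM per kilobase, and Pdhx, which anchors Dld to the core, was lowest at 6.87. Thus Pdha1 was 7.01 times as abundant as Dlat per kilobase, and Dld was 8.92 times as abundant as Pdhx. Pdhx was at the 67.6th percentile of expressed genes, whereas Pdha1 was at the 97.8th. Pdhb shares 29.8% of its 51-base windows with another gene, Gm6123. Pdha1 shares 16.8%, chiefly with Map3k15 (16.4%). Whether reads were lost in these windows was not tested for either gene. With the same CPM over the length without those windows, Pdhb came to 69.7 and Pdha1 to 100.4 CPM per kilobase, and Pdhb passed Dld. The distance from both to Dlat and Pdhx widened, which follows from the shorter lengths alone.

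The kinases lay below most of the enzymes they were set against. These 4 isozymes phosphorylate the alpha subunit and so turn pyruvate away from the cycle. Pdk2 (chr11:95026258-95041354, minus strand, 11 exons), the most widely expressed of them, was listed at 73.9 CPM and 32.9 CPM per kilobase. Pdk4 (chr6:5483351-5496309, minus strand), which is known to rise in fasting and under PPAR activation, was listed at 26.1 CPM and 7.50 CPM per kilobase. Pdk1, a classic target of hypoxia-inducible factor, was listed at 35.3 CPM and 6.82 CPM per kilobase. Pdk3 was lowest, at 11.2 CPM and 5.30 CPM per kilobase. Pdk2 thus made up 62.6% of the summed level of the kinases per kilobase, against 14.3% for Pdk4, 13.0% for Pdk1 and 10.1% for Pdk3.

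The order below Pdk2 depended on how the level was taken. Pdk1 has the longest transcript of the kinases, 5185 bases, and with coding length it passed Pdk4, at 27.1 against 21.1 CPM per kilobase. An assembled Pdk3 row without a RefSeq identifier stood at 23.9 CPM, above the RefSeq row, and if this row were taken over the RefSeq length Pdk3 would come second at 11.3 CPM per kilobase. Pdk2 was first in each of these versions, with 62.6% of the kinase sum by transcript length, 51.4% by coding length and 56.2% by the highest row.

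Set beside the 23 enzymes, which are the 31 genes without the carrier, kinases and phosphatases, the 4 kinases had a median of 7.16 CPM per kilobase against 50.8. The median of the enzymes was 7.10 times that of the kinases. Per transcript, without division by length, the difference of the medians was -1.89 on the log2 scale (kinases minus enzymes), and per kilobase it was -2.83. With coding length it was -1.68. Of the 23 enzymes, 17 stood above Pdk2 and 2, Me2 and Me3, stood below Pdk3. The other kinases were exceeded by more enzymes, Pdk4 by 20 and both Pdk1 and Pdk3 by 21. Pdk2 was closest to the enzymes, and Pdha1 was 2.54 times as abundant per kilobase as this kinase. Not all subunits of the complex stood above the kinases. Per kilobase of transcript, Pdk2 was above Dlat (11.9) and Pdhx (6.87), and Pdk4 (7.50) was also above Pdhx. With coding length 16 enzymes stood above the highest kinase and 1, Me2, below the lowest.

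**Figure D2:**
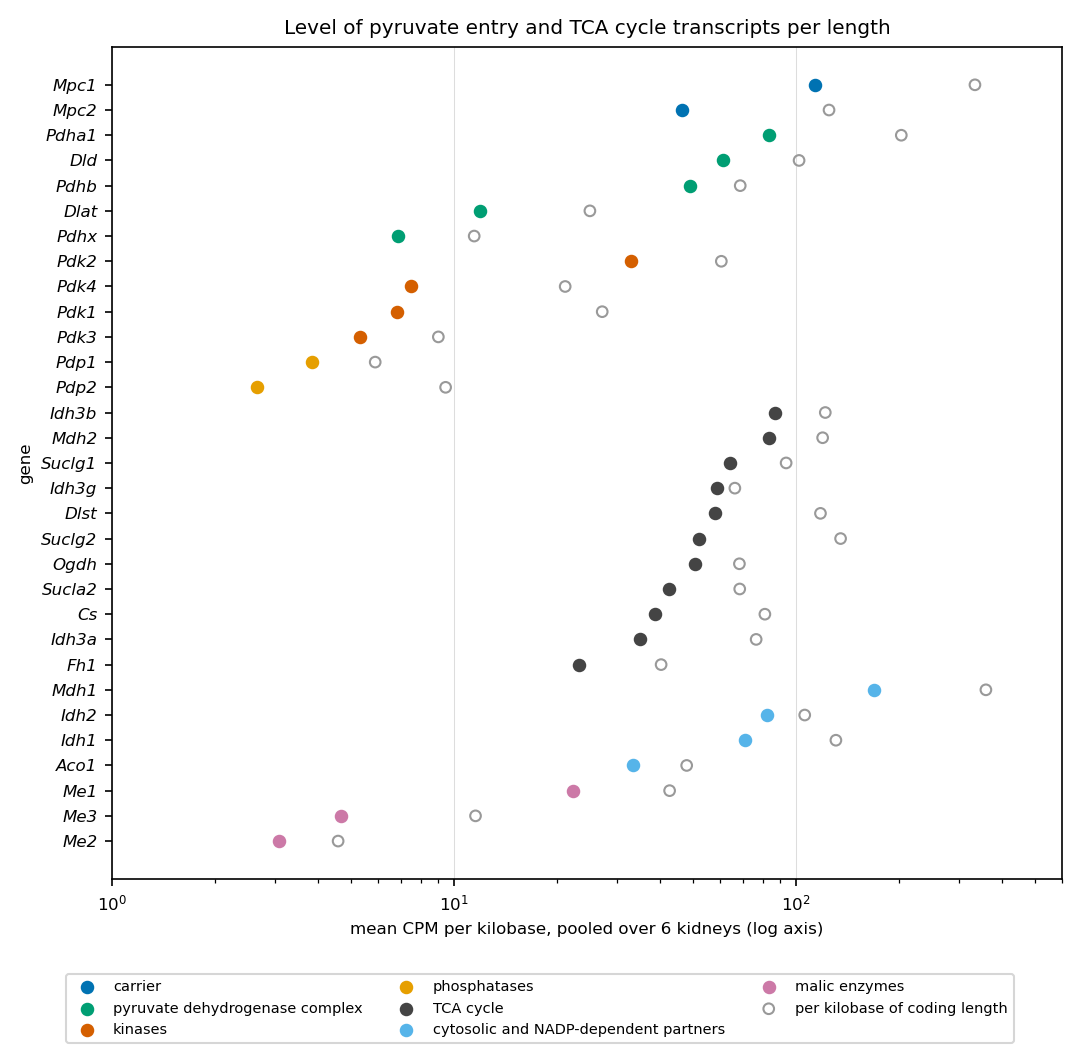
Mean CPM per kilobase, pooled over 6 kidneys (horizontal log axis), of each of the 31 genes (vertical axis), with filled dots for transcript length coloured by role and hollow dots for coding length; no error is shown because each gene has 1 pooled value. The kinases other than Pdk2, the phosphatases, Dlat, Pdhx, Me2 and Me3 sit to the left, at 11.9 or lower by transcript length, while all TCA cycle enzymes lie at 23.3 or above.

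The phosphatases, which remove the phosphate and turn the complex on again, had the lowest median of any role, 3.25 CPM per kilobase. Pdp1, the calcium-stimulated form, was listed at 9.94 CPM and 3.84 CPM per kilobase. Pdp2 was listed at 15.1 CPM and 2.65 CPM per kilobase. Its transcript is 5692 bases long, and with coding length the order turned, with Pdp2 at 9.45 and Pdp1 at 5.89. The summed level of the kinases was 8.09 times that of the phosphatases per kilobase, and 7.68 times with coding length.

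The TCA cycle enzymes formed the narrowest role among those with more than a pair of genes. All 11 lay within 3.73-fold, from Fh1 (chr1:175600374-175625635, minus strand), the fumarase, at 23.3 CPM per kilobase to Idh3b (chr2:130279309-130284547, minus strand), a subunit of the NAD-dependent isocitrate dehydrogenase, at 86.9. Their median was 52.1 CPM per kilobase, and each was above the 90th percentile of expressed genes, with Fh1 at 90.8 and Idh3b at 97.9. Mdh2, the mitochondrial malate dehydrogenase that acts after fumarase, stood at 83.4 CPM per kilobase, 3.58 times the level of Fh1. Cs, the citrate synthase that takes in acetyl-CoA, stood at 38.6.

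Subunits of single enzymes differed within this range. Of the isocitrate dehydrogenase, Idh3g stood at 58.7 and Idh3a, the catalytic subunit, at 35.0 CPM per kilobase, so that Idh3b was 2.49 times Idh3a. With coding length this ratio was 1.59. Ogdh and Dlst, the first and second components of the 2-oxoglutarate dehydrogenase complex, were at 50.8 and 58.1 CPM per kilobase, a ratio of 0.874 that became 0.579 with coding length, and they share Dld as the third component with the pyruvate dehydrogenase complex. Per kilobase both were above Dlat and Pdhx, the low subunits of that complex.

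Succinyl-CoA ligase consists of the alpha subunit Suclg1 and either of the beta subunits, Sucla2 for ATP and Suclg2 for GTP. Suclg1 stood at 64.0, Suclg2 at 52.1 and Sucla2 at 42.7 CPM per kilobase. The GTP form was 55.0% of the sum of the beta subunits, and that sum was 1.48 times Suclg1. Suclg2 shares 21.6% of its windows with other genes. Its ratio to Sucla2 was 1.22 by transcript length, 1.56 over the length not shared and 1.97 by coding length. By coding length Suclg2 was the first of the TCA cycle enzymes, at 135 CPM per kilobase.

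The partners outside the NAD-linked cycle were high. Mdh1 (chr11:21556787-21572367, minus strand), which works in the malate-aspartate shuttle, was listed at 360.2 CPM and 169.7 CPM per kilobase, at the 99.2nd percentile of expressed genes. It was 2.04 times as abundant per kilobase as Mdh2, and 3.00 times with coding length. The NADP-dependent isocitrate dehydrogenases were close together, with mitochondrial Idh2 at 82.5 and cytosolic Idh1 at 71.2 CPM per kilobase. By coding length this order turned, and the ratio of Idh1 to Idh2 went from 0.864 to 1.23. Aco1, the cytosolic aconitase that also serves as an iron-responsive RNA-binding protein, was lowest of the partners at 33.4 CPM per kilobase.

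Of the malic enzymes, which convert malate to pyruvate, the cytosolic NADP-dependent Me1 led. Me1 (chr9:86581371-86695953, minus strand) was listed at 73.3 CPM and 22.3 CPM per kilobase, mitochondrial Me3 at 4.67 CPM per kilobase, and mitochondrial NAD-dependent Me2 (chr18:73769903-73815449, minus strand) at 3.07. Me1 was 4.77 times Me3 and 7.26 times Me2. Windows shared with other genes make up 32.9% of Me1. Its full CPM over the remaining length came to 33.2 CPM per kilobase, which left the order of the 3 malic enzymes as it was. The mitochondrial malic enzymes were below every kinase by transcript length, and with coding length only Me2 was.

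Compared with neighbouring routes, the enzymes were close to complex I of the respiratory chain per kilobase, but not per transcript. Complex I was represented by 37 genes taken by the form of their Nduf symbols. Membership was not checked gene by gene, and subunits under other symbols were left out. The median of the 37 was 51.4 CPM per kilobase against 50.8 for the enzymes, while without division by length it was 50.6 CPM against 113 CPM. Per kilobase, 11 of the 23 enzymes but 0 of the 4 kinases lay above it. The median of 13 glycolysis enzymes was 69.6, with 6 of the 23 enzymes and 0 kinases above it. The median of 17 fatty acid oxidation enzymes was 31.7, with 17 enzymes and 1 kinase, Pdk2, above it. Mitochondrial ribosomal proteins, 76 genes, had a median of 9.20, between Dlat and Pdk4. With 1 pooled value a gene these distances carry no test. A further 22 genes of the pathway, among them succinate dehydrogenase subunits, carboxylases, transaminases and citrate or dicarboxylate carriers, had a median of 29.9 CPM per kilobase. All 22 were at 1 CPM or more, 18 were above the median of expressed genes, and they ran from 0.406 for Ogdhl, a paralogue of Ogdh, to 366 for Ldhb, the lactate dehydrogenase subunit typical of oxidative tissue.

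The table lists RefSeq transcripts beside transcripts assembled from the reads, and the 31 genes took 63 rows. Of the genes, 11 had a single row. Of the other 20, 10 had rows within 0.05 of each other in log2 CPM, and in 5 the rows spread over more than 1: Me3 (1.78), Pdk3 (1.52), Dld (1.34), Mdh1 (1.07) and Mpc2 (1.06). The highest row was an assembled one for 9 genes, in 7 of them within 0.02 of the RefSeq row in log2 CPM. The exceptions were Pdk3, whose RefSeq row was at -1.09 relative to the highest, and Pdp2 at -0.52. Both encode regulators of the pyruvate dehydrogenase complex.

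**Figure D3:**
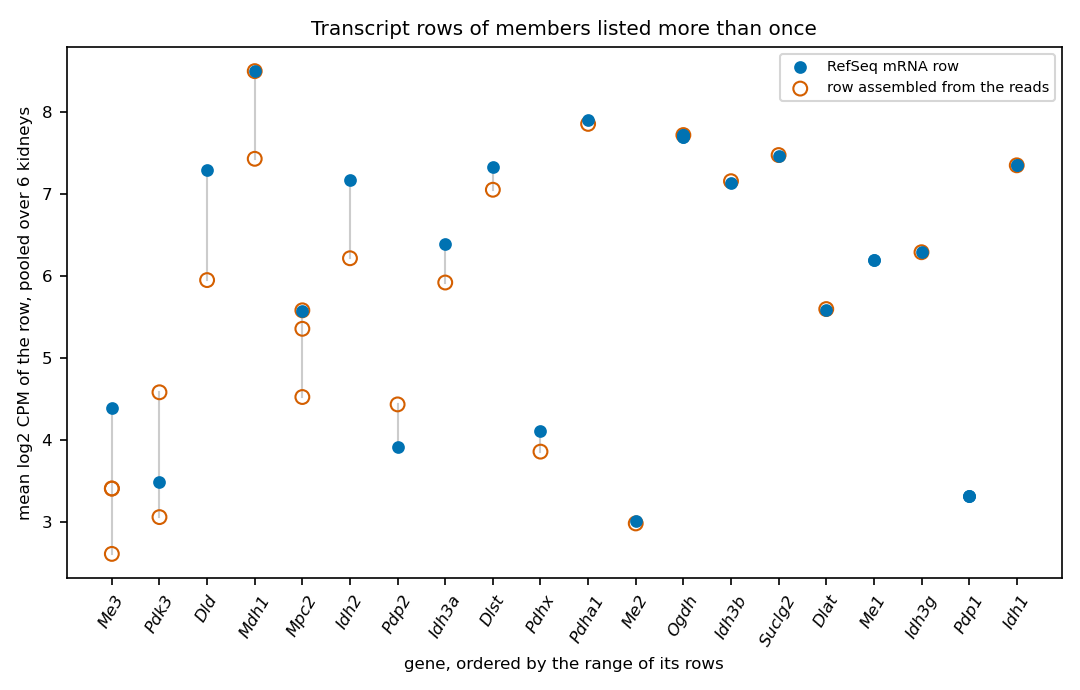
Mean log2 CPM (vertical axis) of every row of the 20 genes with more than 1 row (horizontal axis, ordered by the range of their rows), with filled dots for RefSeq transcripts and hollow dots for transcripts assembled from the reads. Pdk3 and Pdp2 have a hollow dot above the filled one, while in Me3 and Dld the filled dot is highest.

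Start regions were read from RefSeq (GRCm38.p6) as windows from 250 bases before to 50 bases after a start, and were at hand for 28 of the 31 genes. Motifs were searched on both strands, and a gene counted once if any of its windows held a match. CCAAT, the box bound by NF-Y, was found in 18 of the 28 genes (64.3%), against 42.9% of 9432 expressed genes and 41.1% of all 27025 genes with a window. GCGCATGCG, a form of the NRF1 site, was found in 1 of 28 (3.57%), Ogdh, against 4.12% of expressed genes. TCAAGGTCA, the site of estrogen-related receptors, and a direct repeat of AGGTCA with 1 base between, the form bound by PPAR with RXR, were found in 0 of 28, against 0.318% and 0.0318% of expressed genes. With shares this low for both motifs, 0 of 28 cannot set these genes apart from other expressed genes. Other forms of the sites were not searched. For GC content, the window of highest GC stood for each gene, and the median over the 28 genes was 62.7%, against 62.0% in expressed genes. The sites below are those of Ogdh and of the highest gene by level of each role, where that gene had a CCAAT match, shown to let the surroundings of the box be read beside the levels above. They are written 5′ to 3′ on the strand of the gene, with the motif in capitals, and ATTGG is CCAAT on the opposite strand. They lie at chr11:6292535-6292559 (Ogdh, plus strand), chr17:8283744-8283764 (Mpc1, plus), chr11:95041401-95041421 (Pdk2, minus), chr2:130284515-130284535 (Idh3b, minus), chr11:21571996-21572016 (Mdh1, minus) and chr9:86687473-86687493 (Me1, minus).
Ogdh: ggtgttgtGCGCATGCGtaactcaa
Mpc1: gcgttctcATTGGtggagcgc
Pdk2: acaagccgATTGGctaggcgt
Idh3b: caccgccgATTGGtacgggag
Mdh1: gacgcgctCCAATcaccgagg
Me1: cacatggtATTGGtattttgc

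Counted from the RefSeq start of its window, the box lay 35 bases before the start in Mpc1, 42 in Pdk2, 76 in Idh3b, 74 in Mdh1 and 208 in Me1. Except in Pdk2, these starts and sites lie inside the gene spans given above, which begin farther upstream. Pdha1, the highest gene of its complex, and Mdh2, the second of the TCA cycle, had no CCAAT in their windows, although both were above the 90th percentile of expressed genes. A match describes the letters of a window and was not tested for binding.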

How the data were processed

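RNA of whole kidneys was made into libraries with the TruSeq Stranded Total RNA kit and sequenced by the authors as single-end reads of 51 bases, which were mapped to mm10 with TopHat2 2.0.12 and filtered at a mapping quality of 10. The submitters' processing notes also name bcl2fastq 1.8.4, Cufflinks, featureCounts, Subread 1.4.6 and edgeR 3.2.4. The deposited table holds, for each of 54721 transcript rows, the authors' mean abundance as log2 CPM over the 6 kidneys. Its other 4 numeric columns hold the authors' comparison of DKO with SKO (a log fold change, its likelihood ratio statistic, a p-value and an adjusted p-value) and were not used. How rows that overlap share reads, whether strand was used in counting, the normalization and the depth are not given in the sources used here. Counts over rows that overlap may therefore hold the same reads more than once.

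The table had 27012 RefSeq mRNA rows and 24160 assembled rows. Gene symbols were read from the second field of the row name and the row of highest log2 CPM was taken for each gene. For levels per kilobase, the highest row with a RefSeq mRNA identifier was turned back to CPM and divided by the length of the GENCODE vM21 transcript (GRCm38, the build named mm10) that matches the RefSeq identifier, which gave a length to 26086 rows and 20167 genes. Assembled rows have no length. Shared sequence was measured as the percentage of 51-base windows of a transcript that also occur, on either strand, in transcripts of another gene. For levels over the length not shared, the full CPM was divided by the length reduced by that percentage. No reads were removed, so such a level can only rise, and whether reads were lost in the shared windows was not tested. Row selection was tested on simulated data. The genes and lists were chosen with earlier results of these data known. The text names every gene of the list, and other pathway genes only at the ends of their range. Genes outside that rule (markers and genes that share windows) were named for checks. Ages were taken from the labels, while the study's text gives an age a day lower. No group comparison and no test was made. Python 3.11.15, numpy 2.4.6, pandas 2.3.3 and matplotlib 3.10.9 were used.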

Additional observations from a re-analysis of the deposited data

How the results depend on the processing

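The median of the 31 genes was 6.39 in log2 CPM. It was 6.82 when the rows of a symbol were summed and 6.29 with the median row. Summing raised 20 genes, by up to 2.58, and may count reads more than once. Per kilobase the median went from 42.7 to 68.5 CPM with coding length. The kinases stayed below the enzymes in every version tried. The difference of medians was -1.89 in log2 CPM, -2.83 per kilobase, -1.68 per kilobase of coding length, -3.01 over the length not shared with other genes, -1.88 with summed rows and -1.36 with means in place of medians. Leaving out each kinase in turn gave between -2.11 (without Pdk1 or Pdk2) and -1.68 (without Pdk3 or Pdk4). Of the 31 genes, 16 kept their place in the order of their role with coding length, 25 with the length not shared and 28 with the highest row of any kind over the RefSeq length. The versions with the length not shared, and with the highest row of any kind, were added after the data had been seen. The cause of these shifts was not tested beyond the change of length or row itself.

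No paired analysis was possible because the table holds no value per kidney and the labels give the groups no shared replicate numbers. For the same reason no kidney could be left out. The 4 assembled rows without a symbol among the 20 highest take 6.59% of the summed CPM, which lowers the CPM of all other rows alike.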
